A study of Mus musculus with 9 samples.

Results

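The genes described here were 10 transcription factors and transcriptional regulators that steer CD8 T cells towards effector or memory fate: Tbx21, Eomes, Tcf7, Lef1, Id2, Id3, Prdm1, Bcl6, Zeb2 and Bach2. They were chosen by name, as the rows of the gene table that carry these symbols, and all 10 were found among the 23936 genes with a symbol. RNA sequencing of OT-I cells, mouse CD8 T cells with a transgenic receptor for an ovalbumin peptide, gave 9 libraries in 3 groups of 3. Naive cells came from spleen with no priming named. The spleen-primed cells also came from spleen and carry "iv" in their titles, and the MLN-primed cells came from the MLN, the mesenteric lymph node that drains the intestine, and carry "oral". Organ and title word change together between the primed groups, so their effects cannot be told apart. The labels name no age, further allele, time after priming or sorting gate, and do not say whether libraries came from separate animals, so the p-values measure only the spread between these libraries.

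After antigen stimulation a CD8 T cell can become a short-lived killer or a longer-lived memory cell, and these regulators push in opposite directions. The T-box activators T-bet (Tbx21) and eomesodermin (Eomes), with BLIMP-1 (Prdm1), ZEB2 and ID2, accompany cytotoxic programmes, while TCF1 (Tcf7), LEF1, ID3, BCL6 and BACH2 are known for keeping naive and memory properties. Several form pairs that repress each other or share a binding partner, so the balance within a pair is commonly read together with each level.

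Promoter letters are shown for 4 members, a pair that rose after priming (Tbx21 and Prdm1) and a pair that fell (Bcl6 and Bach2). Each run holds the 250 bases before a transcript start, 5′ to 3′ on the gene's strand, from RefSeq on GRCm38.p6, and capitals mark matches to the motifs searched other than the plain E-box CANNTG. The Tbx21 window is chr11:97115332-97115581 on the minus strand, upstream of the gene. The Prdm1 window is chr10:44458749-44458998 on the minus strand, inside the gene before an internal start. The Bcl6 window is chr16:23981284-23981533 on the minus strand and the Bach2 window chr4:32417185-32417434 on the plus strand, both also inside the gene.
Tbx21: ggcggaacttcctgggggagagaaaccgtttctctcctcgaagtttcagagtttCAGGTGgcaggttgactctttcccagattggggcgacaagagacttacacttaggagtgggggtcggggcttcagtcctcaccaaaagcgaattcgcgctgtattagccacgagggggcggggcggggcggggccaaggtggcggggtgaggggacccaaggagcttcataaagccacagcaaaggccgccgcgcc
Prdm1: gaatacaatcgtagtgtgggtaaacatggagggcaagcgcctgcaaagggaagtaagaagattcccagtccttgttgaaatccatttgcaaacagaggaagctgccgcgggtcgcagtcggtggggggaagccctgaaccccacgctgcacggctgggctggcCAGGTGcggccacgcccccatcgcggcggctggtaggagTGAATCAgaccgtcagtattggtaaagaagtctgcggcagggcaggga
Bcl6: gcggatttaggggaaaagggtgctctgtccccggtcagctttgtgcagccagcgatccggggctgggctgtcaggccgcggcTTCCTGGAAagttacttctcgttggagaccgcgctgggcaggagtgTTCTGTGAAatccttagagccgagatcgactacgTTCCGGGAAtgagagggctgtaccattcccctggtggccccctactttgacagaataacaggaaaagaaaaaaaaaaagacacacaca
Bach2: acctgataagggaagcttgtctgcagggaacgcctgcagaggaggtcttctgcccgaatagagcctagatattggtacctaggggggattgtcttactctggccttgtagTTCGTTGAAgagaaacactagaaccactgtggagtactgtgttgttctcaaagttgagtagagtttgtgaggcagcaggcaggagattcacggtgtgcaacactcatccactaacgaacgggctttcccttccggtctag

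The Tbx21 window held CAGGTG, the E-box that ZEB proteins bind, 196 bases before the start, and the Prdm1 window held it 87 bases before the start. CAGGTG is itself 1 form of CANNTG, so both also count as E-boxes. These were the 2 of 18 member windows with CAGGTG, a string in 17.2% of all 32851 windows of the same length. The Prdm1 window also held TGAATCA, a form of the AP-1 and BACH core TGANTCA, 48 bases before the start, and 6.75% of all windows hold that core. The palindrome TTCNNNGAA, shared by BCL6 and STAT factors, occurred at 168, 122 and 88 bases before the internal Bcl6 start. The other Bcl6 window, at the 5′ end of the gene and not printed, held it once, at 118 bases. Bach2 held it once, at 140 bases, and 5 of 18 member windows held it against 7.02% of all windows. A pair of these 5 are Zeb2 windows that share 224 bases and hold the same match, so the 5 are not separate places. No member window held the TCF/LEF strings CTTTGAA or CTTTGAT, the T-box string GGTGTGA or the BLIMP-1 core AGTGAAA on either strand, which 4.46%, 3.21%, 3.33% and 3.7% of all windows hold. AGGTCA, a nuclear receptor half-site, occurred in 1 member window, that of Tcf7, and in 14% of all windows. The plain E-box was in 9 of 18 member windows and 66.2% of all. Matches are letters in these windows and show nothing about binding.

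Levels are FPKM, numbers of fragments scaled to the length of the transcript and the size of the library, so they can be compared between genes. Differences are given on the scale of log2(FPKM + 1), which understates changes of low genes, with the standard error of a limma model over all 9 libraries and a p adjusted over 10185 genes tested. Of the members, 6 were at 1 FPKM or more in all 9 libraries. Bach2 and Bcl6 passed the filter (1 FPKM in 3 libraries) only through the naive group, and Prdm1 and Zeb2 only through the 6 primed libraries, so those 4 had to differ from naive. Low FPKM fell near whole multiples of a library's unit, with 69.4% to 74.4% of them within 0.15 of a whole number. The unit was picked from the same low values, so the 30% of an even placement is not the level to expect by chance. Taking 1 unit as 1 fragment puts the libraries at an estimated 19600000 to 32100000 fragments. The 10 genes for CD8 T cell identity summed to 3879 to 4246 FPKM in naive, 3141 to 3235 in spleen-primed and 2189 to 2280 in MLN-primed libraries. They did not all go this way: Zap70, a receptor-proximal kinase gene, averaged 77.4, 117 and 107 FPKM in these groups, Lck 391, 511 and 389 FPKM and Cd5 119.6, 136 and 124 FPKM. In bulk RNA, fewer cells of a type and less RNA per cell cannot be told apart.

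All 10 members differed between naive and primed cells in both comparisons, in which 75.8% (spleen-primed) and 78.7% (MLN-primed) of all genes passed. The filter fixed the difference and its direction in advance for Bach2, Bcl6, Prdm1 and Zeb2. Only the other 6 members can be set against these shares. Tbx21, Eomes, Id2, Prdm1 and Zeb2 rose, and Tcf7, Lef1, Id3, Bcl6 and Bach2 fell, in each primed group. Among all genes 43.1% rose and 32.7% fell in spleen-primed cells, and 45.5% rose and 33.2% fell in MLN-primed cells. Under quantile normalisation the spleen-primed split was 3545 higher and 4070 lower, in place of 4387 and 3331, and the MLN-primed split was 3843 and 4141, in place of 4635 and 3385. Removing each library's trend with transcript length gave 3582 and 4070 for spleen-primed and 3823 and 4099 for MLN-primed cells. Both comparisons use the same naive libraries, so they are not independent of each other. Between the primed groups 6 of 10 members passed, where 30.4% of all genes did: Id3 was higher in MLN-primed cells (17.3% of all genes) and Tbx21, Eomes, Tcf7, Id2 and Zeb2 were lower (13.1% of all genes). The number of all genes lower was 884 without spleen-primed 2 and 1333 with it. In 8 of 10 members the primed groups did not overlap, as in 46.1% of all genes tested.

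**Figure D1:**
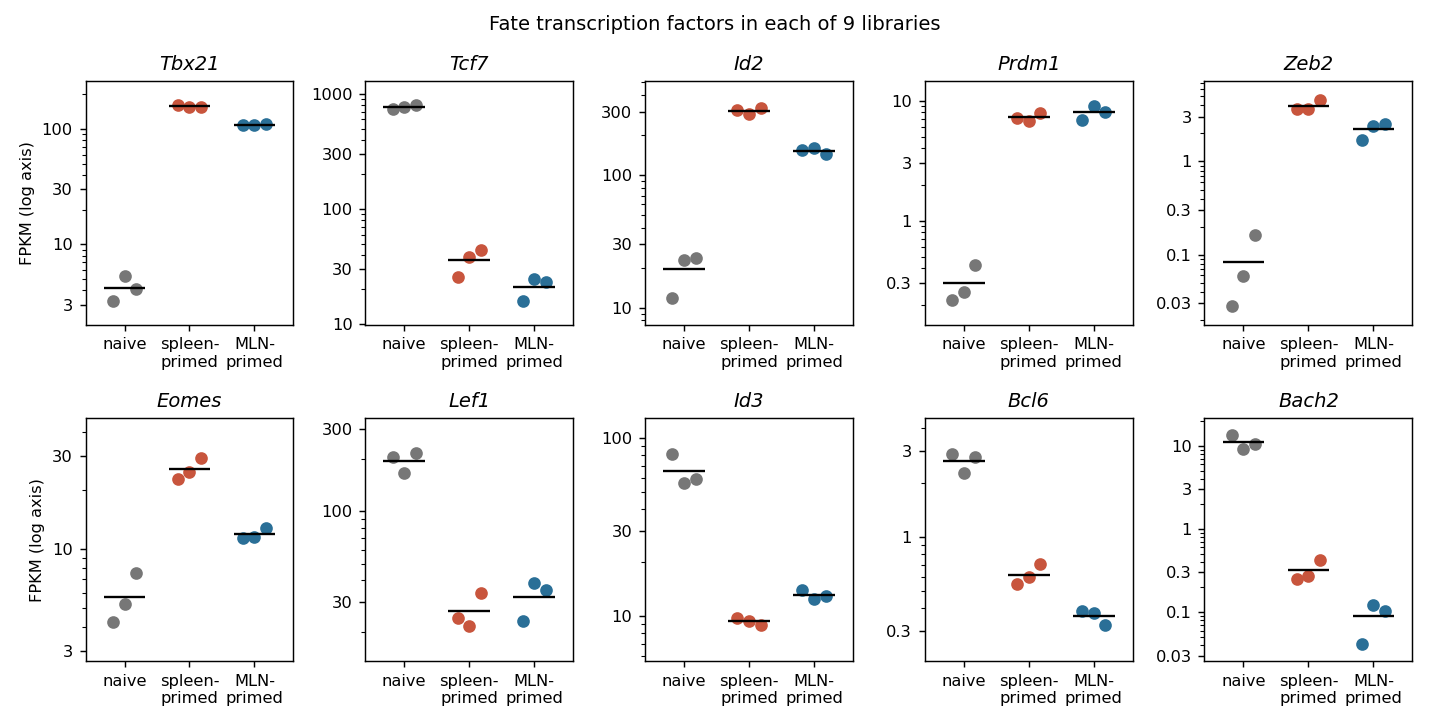
FPKM (log axis, a separate range for each gene) of the 10 regulators in every library, with the group mean as a line. Naive libraries lie apart from all 6 primed libraries in each panel, and the primed groups overlap only for Lef1 and Prdm1. Of all genes tested, 78.2% (spleen-primed) and 80.4% (MLN-primed) did not overlap with naive, and 46.1% did not overlap between the primed groups. For Bach2, Bcl6, Prdm1 and Zeb2 the filter favoured a gap from naive in advance.

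The T-box activators rose on priming and stood lower in MLN-primed cells than in spleen-primed ones. Tbx21 (chr11:97098007-97115331 on GRCm38, minus strand) encodes T-bet, which drives cytotoxic effector genes. Its naive libraries held 3.22, 5.32 and 4.08 FPKM. The spleen-primed libraries held 163, 155 and 157 FPKM and the MLN-primed libraries 108, 108 and 109.9 FPKM. The 3 groups were thus far apart, with a spread of only 1.01 FPKM (SD, n = 3) around 109 FPKM in MLN-primed cells. The rise over naive was 4.96 ± 0.12 (SE, log2; adjusted p = 3.18e-10) in spleen-primed cells and 4.42 ± 0.12 (adjusted p = 6.14e-10) in MLN-primed cells. MLN-primed cells were lower than spleen-primed cells by −0.54 ± 0.12 (adjusted p = 0.00851). This is a level 1.46-fold higher in the spleen-primed group.

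Eomes (chr9:118478186-118486132, plus strand), a T-bet relative linked to memory upkeep as well as cytotoxicity, had a smaller response. Naive libraries held 4.26, 5.22 and 7.58 FPKM. Spleen-primed libraries held 22.8, 24.97 and 29.4 FPKM. MLN-primed libraries held 11.4, 11.5 and 12.8 FPKM. The MLN-primed values thus lay between naive and spleen-primed values without touching either. Eomes rose by 2.02 ± 0.17 (log2; adjusted p = 1.84e-06) in the spleen-primed and by 0.98 ± 0.17 (adjusted p = 3.15e-04) in the MLN-primed cells. The difference between the primed groups was −1.04 ± 0.17 (adjusted p = 0.00141), or 2.16-fold. The log2 ratio of Tbx21 to Eomes, each as FPKM + 1, was 2.58 ± 0.20 (SD, n = 3) in the spleen-primed and 3.09 ± 0.07 in the MLN-primed libraries, against −0.35 ± 0.39 in naive libraries.

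NK cells also express both T-box genes, ID2 and ZEB2, and the summed level of 6 NK marker genes, like these 4 genes, was lower in MLN-primed than spleen-primed libraries. From naive to MLN-primed cells the 4 genes rose, while the sums of these groups overlapped. The sum was 2.09, 9.40 and 7.29 FPKM in the naive libraries, 9.005 to 9.46 FPKM in spleen-primed and 3.73 to 4.55 FPKM in MLN-primed libraries. Ncr1, the defining receptor of NK cells, averaged 0.375 FPKM in naive, 0.0185 FPKM in the spleen-primed and 0.0100 FPKM in the MLN-primed cells. The markers behind the difference were Klre1, at 3.53 against 0.947 FPKM, and Klrb1c, at 2.41 against 0.474 FPKM in spleen-primed and MLN-primed cells. Among the naive libraries, naive 1 had the lowest sum and also the lowest Tbx21, Eomes, Id2 and Zeb2. The part of these markers in the results was not tested.

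TCF1 and LEF1, the HMG-box partners of β-catenin that maintain naive and memory T cells, both fell steeply on priming. Tcf7 (chr11:52246527-52283383, minus strand) was the most abundant member in naive cells, at 739, 776 and 809.6 FPKM. Spleen-primed libraries held 25.9, 38.3 and 43.8 FPKM and MLN-primed libraries 15.8, 24.9 and 23.0 FPKM. The lowest spleen-primed library stood just above the highest MLN-primed library, and both groups lay far below naive. The fall was −4.42 ± 0.20 (log2; adjusted p = 2.12e-08) in spleen-primed cells, the 14th largest fall of all genes tested, and −5.15 ± 0.20 (adjusted p = 5.77e-09) in MLN-primed cells, the 7th largest. Primed cells kept 4.65% (spleen-primed) and 2.74% (MLN-primed) of the naive mean. The difference between the primed groups, −0.73 ± 0.20 (adjusted p = 0.0196), did not pass without spleen-primed 2 (−0.67, adjusted p = 0.0741) or without spleen-primed 3 (−0.57, adjusted p = 0.0570). It also did not pass with no filter on low values (adjusted p = 0.0513) or in a fit of the primed groups alone (adjusted p = 0.0533).

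Lef1 (chr3:131110297-131224357, plus strand) fell less than Tcf7. Naive libraries held 207, 167 and 218 FPKM. Spleen-primed libraries held 24.2, 21.8 and 33.7 FPKM and MLN-primed libraries 23.2, 38.5 and 35.0 FPKM. The primed groups overlapped, and their difference of 0.26 ± 0.20 (log2) did not pass (adjusted p = 0.376). The falls from naive were −2.86 ± 0.20 (adjusted p = 6.79e-07) in the spleen-primed and −2.60 ± 0.20 (adjusted p = 1.09e-06) in the MLN-primed cells. The order of the 2 genes differed by group: the log2 ratio of Lef1 to Tcf7 was −1.98 ± 0.20 (SD, n = 3) in naive, −0.42 ± 0.35 in the spleen-primed and 0.57 ± 0.04 in the MLN-primed libraries. Tcf7 was the more abundant in every naive and spleen-primed library, and Lef1 in every MLN-primed library. An antisense gene, Gm43352, shares 1208 exon bases with Lef1 and has no FPKM here. Since the use of strand in counting is not given, its reads cannot be told apart from those of Lef1 with certainty.

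**Figure D2:**
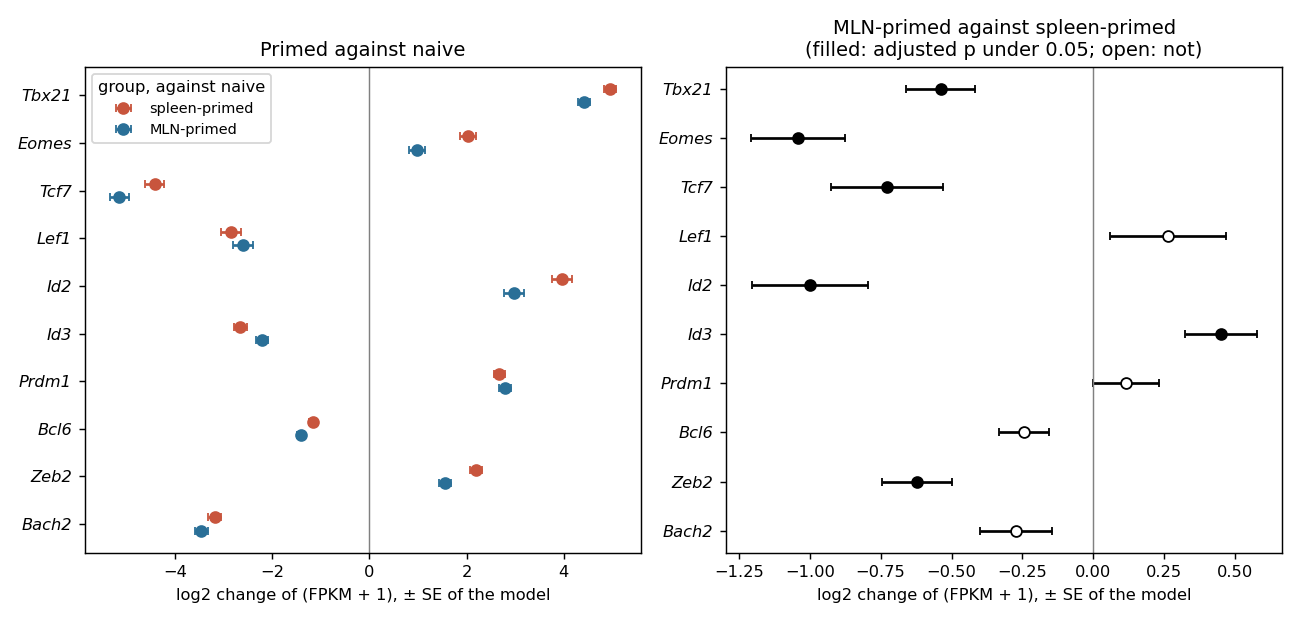
Log2 change of (FPKM + 1) with the standard error of the model for each regulator, against naive (left, both primed groups) and between the primed groups (right, filled where the adjusted p was under 0.05). Each gene moved the same way in both primed groups against naive, and in the right panel Id3 is the filled point above 0.

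The inhibitors of E proteins moved in opposite directions. ID2 and ID3 lack a DNA-binding region and hold E proteins away from DNA, ID2 being linked to effector and ID3 to memory cells. Id2 (chr12:25093799-25096092, minus strand) held 11.9, 22.9 and 23.5 FPKM in naive libraries. Spleen-primed libraries held 312, 288 and 320.0 FPKM and MLN-primed libraries 153, 161 and 145 FPKM. Id2 was the most abundant member in each primed library, with a clear gap between the groups. It rose by 3.97 ± 0.21 (log2; adjusted p = 6.41e-08) in the spleen-primed and 2.97 ± 0.21 (adjusted p = 4.35e-07) in the MLN-primed cells. The primed groups differed by −0.999 ± 0.206 (adjusted p = 0.00544), with the spleen-primed mean 2.01-fold higher.

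Id3 (chr4:136143822-136145392, plus strand) held 81.3, 55.9 and 58.9 FPKM in naive libraries. Spleen-primed libraries held 9.79, 9.41 and 8.90 FPKM and MLN-primed libraries 14.004, 12.5 and 13.0 FPKM. Among the members this was the 1 gene that passed with a higher level in MLN-primed cells. The falls from naive were −2.66 ± 0.13 (log2; adjusted p = 3.52e-08) and −2.21 ± 0.13 (adjusted p = 1.07e-07) in spleen-primed and MLN-primed cells. The difference of 0.45 ± 0.13 (adjusted p = 0.0236) was lost under quantile normalisation (0.39, adjusted p = 0.0684). It was also lost without spleen-primed 2 (adjusted p = 0.0666), spleen-primed 3 (adjusted p = 0.0607), MLN-primed 1 (adjusted p = 0.0565) or MLN-primed 3 (adjusted p = 0.0579). The log2 ratio of Id2 to Id3 was −1.74 ± 0.81 (SD, n = 3) in naive, 4.89 ± 0.12 in the spleen-primed and 3.44 ± 0.12 in the MLN-primed libraries. In FPKM, Id2 stood 32.7-fold above Id3 in spleen-primed and 11.6-fold above it in MLN-primed cells.

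Among the E proteins that these inhibitors bind, Tcf3 rose and Tcf12 fell. Tcf3 went from a mean of 30.9 FPKM in naive to 53.4 FPKM in spleen-primed (0.76 ± 0.13, log2; adjusted p = 4.54e-04) and 54.4 FPKM in MLN-primed cells (0.79 ± 0.13, adjusted p = 3.26e-04). Tcf12 went from 37.4 FPKM to 13.5 FPKM (−1.40 ± 0.10, adjusted p = 7.17e-07) and 11.04 FPKM (−1.68 ± 0.10, adjusted p = 1.47e-07). The other inhibitors of this family, Id1 and Id4, were too low to be tested, with Id4 listed at 0 in every library.

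BLIMP-1 and BCL6 are repressors that shut off each other's genes. Prdm1 (chr10:44437174-44528558, minus strand), which encodes BLIMP-1, held 0.217, 0.254 and 0.429 FPKM in naive libraries. Spleen-primed libraries held 7.21, 6.73 and 7.96 FPKM and MLN-primed libraries 6.85, 9.11 and 8.11 FPKM. The primed groups overlapped, while naive libraries stayed under 1 FPKM, at an estimated 17.1 to 37.3 fragments a library. Prdm1 rose by 2.68 ± 0.12 (log2; adjusted p = 1.72e-08) in the spleen-primed and by 2.79 ± 0.12 (adjusted p = 9.86e-09) in the MLN-primed cells. The difference between them was 0.12 ± 0.12 (adjusted p = 0.501), so Prdm1 differed from Tbx21, Id2 and Zeb2 in having no lower call in MLN-primed cells. Whether its difference departs from theirs was not tested.

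Bcl6 (chr16:23965050-23988866, minus strand) encodes a repressor of effector genes and was low throughout. Naive libraries held 2.86, 2.27 and 2.76 FPKM. Spleen-primed libraries held 0.545, 0.597 and 0.704 FPKM and MLN-primed libraries 0.386, 0.377 and 0.325 FPKM. The 3 groups did not overlap, at an estimated 194 to 210 fragments a library in naive, 51.1 to 68.2 in spleen-primed and 32.5 to 36.7 in MLN-primed cells. The falls from naive were −1.17 ± 0.09 (log2; adjusted p = 9.37e-07) in the spleen-primed and −1.41 ± 0.09 (adjusted p = 1.81e-07) in the MLN-primed cells. Between the primed groups the difference of −0.24 ± 0.09 missed the threshold (adjusted p = 0.0588). It passed with a pseudocount of 0.1 (−0.63, adjusted p = 0.0174) and under 5 other alternatives, with adjusted p from 0.0268 to 0.0496. The log2 ratio of Prdm1 to Bcl6 was −1.48 ± 0.16 (SD, n = 3) in naive, 2.36 ± 0.07 in the spleen-primed and 2.72 ± 0.19 in the MLN-primed libraries.

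**Figure D3:**
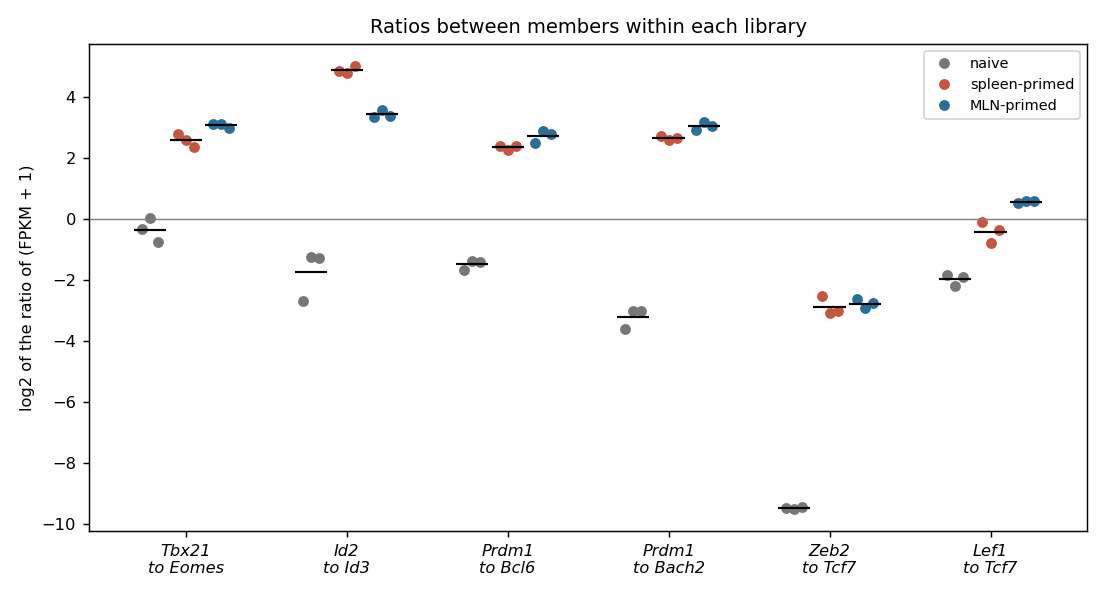
Log2 ratio of (FPKM + 1) for 6 pairs of regulators in each of the 9 libraries, coloured by group, with the group mean as a line. The ratio of Id2 to Id3 is lower in the MLN-primed libraries than in the spleen-primed ones, and that of Lef1 to Tcf7 passes from below 0 to above 0 between them.

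ZEB2 and BACH2 are repressors at opposite ends of the effector programme. Zeb2 (chr2:44983512-45117442, minus strand), a zinc-finger factor that acts with T-bet in terminal effector cells, was almost silent in naive libraries at 0.0282, 0.0588 and 0.163 FPKM. Spleen-primed libraries held 3.64, 3.63 and 4.57 FPKM and MLN-primed libraries 1.70, 2.43 and 2.54 FPKM. The groups were apart, with naive libraries under 1 FPKM. Zeb2 rose by 2.19 ± 0.12 (log2; adjusted p = 1.24e-07) in the spleen-primed and by 1.56 ± 0.12 (adjusted p = 1.17e-06) in the MLN-primed cells. The primed groups differed by −0.62 ± 0.12 (adjusted p = 0.00456), and the spleen-primed mean was 1.78-fold higher. An antisense gene, Zeb2os, shares 653 exon bases with Zeb2 and held 1.59 to 2.18 FPKM in spleen-primed, 0.722 to 0.920 FPKM in MLN-primed and at most 0.0740 FPKM in naive libraries. Whether the counting used strand is not given in the sources used here, so reads of the 2 genes cannot be told apart with certainty. Against Tcf7, which it opposes in fate, the log2 ratio of Zeb2 was −9.49 ± 0.04 (SD, n = 3) in naive, −2.88 ± 0.30 in the spleen-primed and −2.77 ± 0.14 in the MLN-primed libraries.

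Bach2 (chr4:32238413-32586109, plus strand) encodes a repressor that restrains effector genes by occupying AP-1 sites. Naive libraries held 13.7, 9.22 and 10.5 FPKM. Spleen-primed libraries held 0.253, 0.274 and 0.424 FPKM and MLN-primed libraries 0.0407, 0.122 and 0.104 FPKM. The groups did not overlap, and the mean stood 35.1-fold below naive in spleen-primed and 125-fold below it in MLN-primed cells. By estimate, the libraries held 1900 to 2279 Bach2 fragments in naive, 57.1 to 98.9 in spleen-primed and 8.8 to 28.4 in MLN-primed cells. The falls were −3.19 ± 0.13 (log2; adjusted p = 1.01e-08) and −3.46 ± 0.13 (adjusted p = 4.63e-09). Between the primed groups −0.27 ± 0.13 did not pass (adjusted p = 0.140). With a pseudocount of 0.1, which compresses low values less, it was −1.15 (adjusted p = 0.00685). It also passed in a fit of the primed groups alone (adjusted p = 0.0274) and without naive 1 (adjusted p = 0.0438). Under the other 17 alternatives it did not pass. The antisense gene of Bach2, Bach2os, which shares 537 exon bases, held 0.589 to 0.913 FPKM in naive and at most 0.0698 FPKM in primed libraries. The log2 ratio of Prdm1 to Bach2 was −3.21 ± 0.33 (SD, n = 3) in naive, 2.66 ± 0.06 in the spleen-primed and 3.04 ± 0.13 in the MLN-primed libraries. B cells also express Bach2 and Bcl6. Of 8 B cell markers, 7 stayed at or under 0.335 FPKM in every library, and the other, Cd79b, had a mean of 12.5 FPKM in naive, 7.02 FPKM in the spleen-primed and 12.3 FPKM in the MLN-primed cells. Summed markers of myeloid cells were 5.01, 27.97 and 44.1 FPKM in the naive libraries and at most 2.92 FPKM in any primed library. The list of dendritic cell and MHC class II genes summed to 81.6 to 146 FPKM in naive, 95.5 to 106 FPKM in spleen-primed and 38.1 to 49.9 FPKM in MLN-primed libraries. Within it Cd74 averaged 55.4 FPKM in naive and 2.11 and 1.98 FPKM in primed cells, and Itgax, an integrin gene that activated T cells also express, 1.06 FPKM in naive and 94.8 and 42.0 FPKM in primed cells. Their part in the members that fell was not tested.

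**Figure D4:**
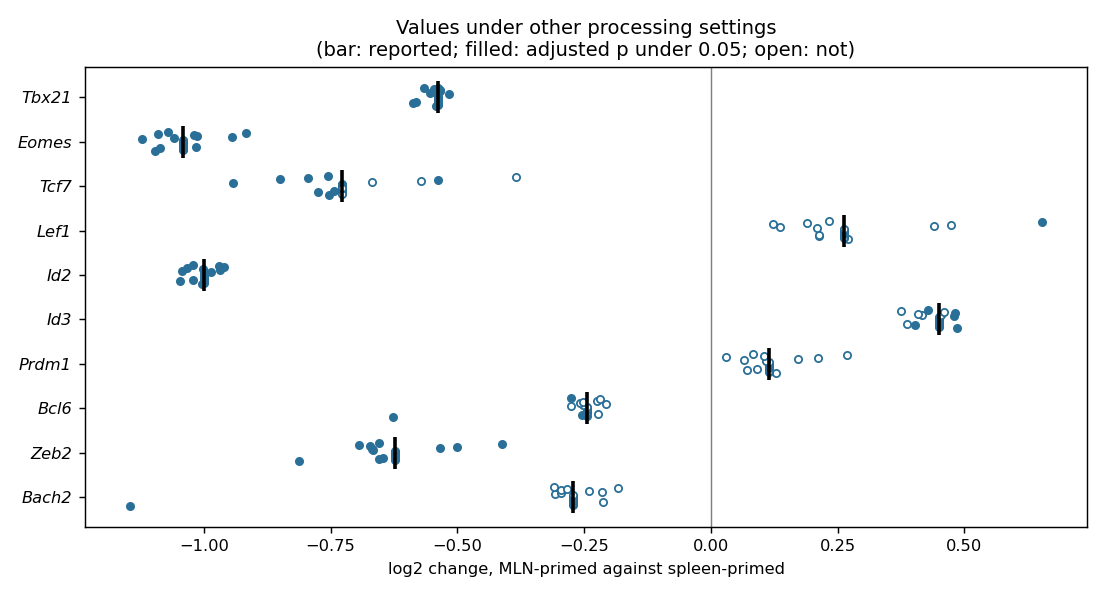
Log2 change between MLN-primed and spleen-primed cells for each regulator as reported (bar) and under the alternatives tried (points, filled where the adjusted p was under 0.05). The signs held throughout, while the calls of Tcf7, Id3, Lef1, Bcl6 and Bach2 depended on the setting.

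The order of levels turned over on priming. In naive cells it ran from Tcf7 (775 ± 35.1 FPKM, SD, n = 3) through Lef1 (197 ± 26.6), Id3 (65.4 ± 13.8), Id2 (19.5 ± 6.56), Bach2 (11.1 ± 2.31), Eomes (5.69 ± 1.71), Tbx21 (4.21 ± 1.06) and Bcl6 (2.63 ± 0.316) to Prdm1 (0.300 ± 0.113) and Zeb2 (0.0834 ± 0.0708). Id2 overlapped Bach2 and Eomes overlapped Tbx21. In spleen-primed cells Id2 (307 ± 16.8 FPKM) and Tbx21 (158 ± 4.46) led. Tcf7 (35.999 ± 9.21), Lef1 (26.6 ± 6.31) and Eomes (25.7 ± 3.38) overlapped with each other, and Id3 (9.37 ± 0.446), Prdm1 (7.30 ± 0.622), Zeb2 (3.95 ± 0.543), Bcl6 (0.615 ± 0.0807) and Bach2 (0.317 ± 0.0930) followed without overlap. In MLN-primed cells Id2 (153 ± 7.77 FPKM) and Tbx21 (109 ± 1.01) again led, and Lef1 (32.2 ± 7.99) overlapped Tcf7 (21.2 ± 4.78). Id3 (13.2 ± 0.756) overlapped Eomes (11.9 ± 0.784), and Prdm1 (8.02 ± 1.13), Zeb2 (2.22 ± 0.455), Bcl6 (0.362 ± 0.0330) and Bach2 (0.0891 ± 0.0429) came last.

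Within the primed groups many members varied together with a library trend. The values of MLN-primed 1 fell with transcript length relative to its group (slope −0.0897 log2 per doubling of length), and 7 of 10 members were lowest in that library: Tbx21, Eomes, Tcf7, Lef1, Prdm1, Zeb2 and Bach2. Tbx21 deviated there from its group mean by only −0.009 log2. In spleen-primed 1, which had the most negative slope of its group (−0.0512), 4 of 10 members were lowest. In both primed groups 8 of 10 members were higher in the library with the most positive slope than in the one with the most negative. In naive libraries this held for 4 of 10. The matching shares of all genes were not computed. Measured against the mean of all 9 libraries, the slope was 0.111 to 0.187 in naive and −0.167 to −0.00399 in primed libraries. With this trend removed from each library, all member calls stood except that Bcl6 passed (−0.28, adjusted p = 0.0315). Without both spleen-primed 3 and MLN-primed 1, Tcf7 (−0.38, adjusted p = 0.0690) and Id3 (0.38, adjusted p = 0.0840) no longer passed, and Lef1 did (0.65, adjusted p = 0.00347).

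Of 19 paralogues of the members 8 were expressed highly enough to be tested, and they mostly fell with priming whichever way the related member moved. Of the 8, 6 fell and 0 rose in spleen-primed cells with limma (0 also at an unadjusted p under 0.05), and 6 fell and 1 rose in MLN-primed cells. Their median change was −1.17 and −1.10 (log2), against 0.10 and 0.15 over all genes tested. Of all genes 32.7% fell and 43.1% rose in spleen-primed cells, and 33.2% fell and 45.5% rose in MLN-primed cells. Prdm11, at most 0.918 FPKM in any primed library, passed the filter only through the naive libraries. Zeb1, the relative of Zeb2, went from 10.2 FPKM in naive to 3.17 FPKM in spleen-primed (−1.43 ± 0.14, adjusted p = 7.13e-06) and 2.96 FPKM in MLN-primed cells (−1.50 ± 0.14, adjusted p = 4.02e-06). Zeb1 was thus the more abundant of the pair in naive cells. The mean of Zeb2 was above that of Zeb1 in spleen-primed cells, at 3.95 FPKM, and below it in MLN-primed cells, at 2.22 FPKM. Their libraries overlapped in both primed groups. Zeb1 held 2.75 to 3.96 FPKM and Zeb2 3.63 to 4.57 FPKM in spleen-primed libraries. In MLN-primed libraries Zeb1 held 2.42 to 3.65 FPKM and Zeb2 1.70 to 2.54 FPKM. Bach1, the relative of Bach2, fell from 8.80 FPKM to 2.49 and 1.64 FPKM and was the paralogue that differed between the primed groups (−0.41 ± 0.11, adjusted p = 0.0222). That call was lost without spleen-primed 2 (adjusted p = 0.0736), spleen-primed 3 (adjusted p = 0.0511) or MLN-primed 1 (adjusted p = 0.0657). Prdm4 was the paralogue that rose, from 10.2 FPKM to 12.9 FPKM in MLN-primed cells (0.30 ± 0.08, adjusted p = 0.00682). It did not pass under median-of-ratios scaling (0.15, adjusted p = 0.127) or quantile normalisation (0.19, adjusted p = 0.0585). Tcf7l1, Tcf7l2 and Bcl6b were not tested, with no library above 0.697 FPKM.

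Partner proteins, such as the TLE corepressors that TCF1 recruits and the small MAF proteins that pair with BACH2, gave 20 tested genes. Of these, 6 rose and 11 fell in spleen-primed cells (median −0.45), and 5 rose and 11 fell in MLN-primed cells (median −0.34). Over all genes 43.1% rose and 32.7% fell (median 0.10) in the first comparison, and 45.5% and 33.2% (median 0.15) in the second. Bcl9 and Maff, at naive means of 3.99 and 3.09 FPKM, needed the naive libraries to pass the filter, so their fall was favoured in advance. Hdac3, a histone deacetylase, rose from 24.8 FPKM to 50.5 and 55.8 FPKM (0.99 ± 0.07 and 1.14 ± 0.07; adjusted p = 5.86e-07 and 1.71e-07). Tle4 fell from 24.4 FPKM to 12.7 and 8.57 FPKM, and was lower in MLN-primed than spleen-primed cells (−0.52 ± 0.10, adjusted p = 0.00455). Between the primed groups 1 partner was higher, the histone demethylase gene Kdm1a (0.31 ± 0.10, adjusted p = 0.0350), and 2 were lower, Tle4 and Aes (−0.26 ± 0.08, adjusted p = 0.0314). Kdm1a did not pass without spleen-primed 1, spleen-primed 2, MLN-primed 2 or MLN-primed 3, nor with no filter (adjusted p = 0.0537 to 0.126). Aes did not pass without spleen-primed 2, spleen-primed 3, MLN-primed 1 or MLN-primed 2, nor under quantile normalisation (adjusted p = 0.0542 to 0.129). Small MAF genes parted after priming: Mafg rose from 2.34 FPKM to 4.52 and 5.77 FPKM and Mafk fell from 18.1 FPKM to 7.07 and 7.75 FPKM.

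Genes linked to T-bet, BLIMP-1, ZEB2 and ID2 in effector cells rose on priming and were lower in MLN-primed cells. All 20 rose in the spleen-primed and 19 in the MLN-primed cells, where 43.1% and 45.5% of all genes rose. Some, such as Klrg1 and Itgam (naive means 0.726 and 0.326 FPKM), passed the filter only with primed libraries. Their rise was thus favoured in advance, and all lists here were chosen with earlier results of these data known. Between the primed groups 14 of 20 were lower and 0 higher with limma (15 and 0 at an unadjusted p under 0.05). The median difference was −1.23, against 0.03 over all genes tested, of which 13.1% were lower. The pore-forming gene Prf1 held 85.8 FPKM in the spleen-primed and 28.7 FPKM in the MLN-primed cells (−1.55 ± 0.08, adjusted p = 7.16e-06). S1pr5, a receptor for exit from tissue, held 22.3 and 4.22 FPKM (−2.16 ± 0.12, adjusted p = 8.72e-06). The integrin gene Itgb1 (−1.62 ± 0.08, adjusted p = 4.56e-06) and the chemokine receptor gene Cx3cr1 (−2.16 ± 0.14, adjusted p = 1.69e-05) had the other lowest p-values.

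Genes linked to TCF1, LEF1, ID3, BACH2 and EOMES in naive and memory cells fell on priming, 20 of 22 in each primed group. Some, such as Cxcr5 and Igfbp4 (naive means 4.94 and 55.9 FPKM), needed the naive libraries to pass the filter. The fall of such genes was thus favoured in advance. The shares of all genes that fell against naive were 32.7% (spleen-primed) and 33.2% (MLN-primed). Myb rose in both, from 2.04 FPKM to 4.98 FPKM (0.98 ± 0.17, adjusted p = 3.93e-04) and 9.67 FPKM (1.83 ± 0.17, adjusted p = 3.42e-06), and Xcl1 in MLN-primed cells (1.21 ± 0.32, adjusted p = 0.00575), a call lost with the length trend removed (0.45, adjusted p = 0.170). Between the primed groups 5 were higher and 10 lower in MLN-primed cells, with a median of −0.28, where 17.3% of all genes were higher and 13.1% lower. Xcl1, a chemokine gene (1.69 ± 0.32, adjusted p = 0.00353), Myb (0.85 ± 0.17, adjusted p = 0.00418), Igfbp4 (0.60 ± 0.13, adjusted p = 0.00635) and Treml2 (0.60 ± 0.13, adjusted p = 0.00708) were higher. Igfbp4 and Treml2 were low in both primed groups, at means of 0.815 and 2.08 FPKM in MLN-primed and 0.195 and 1.04 FPKM in spleen-primed cells. Ltb (−0.81 ± 0.06, adjusted p = 4.17e-05), S1pr1 (−0.74 ± 0.07, adjusted p = 9.82e-05) and Txk (−0.74 ± 0.09, adjusted p = 3.96e-04) were among the lower.

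Among 26 tested transcription factors of T cell fate that are not members, 11 rose and 7 fell in spleen-primed cells, and 11 rose and 10 fell in MLN-primed cells. These counts are near the shares of all genes, 43.1% and 32.7%, and 45.5% and 33.2%. Between the primed groups 4 were higher and 6 lower, with a median of −0.17, where 17.3% of all genes were higher and 13.1% lower. With the length trend removed 11 were lower. The 4 higher were Hic1 (9.91 against 1.86 FPKM, 1.93 ± 0.12, adjusted p = 1.45e-05), Batf3 (11.3 against 2.56 FPKM, 1.79 ± 0.17, adjusted p = 8.59e-05), Batf (0.36 ± 0.09, adjusted p = 0.0126) and Irf4 (0.45 ± 0.14, adjusted p = 0.0384). Ets1 (−0.60 ± 0.11, adjusted p = 0.00281), Foxo3 (−0.45 ± 0.09, adjusted p = 0.00545) and Stat4 (−0.39 ± 0.11, adjusted p = 0.0201) were among the lower. The Irf4 call was lost under 10 alternatives (adjusted p = 0.0650 to 0.196), among them median-of-ratios scaling and leaving out any primed library other than spleen-primed 3. The Stat4 call was lost without spleen-primed 3 (adjusted p = 0.0615) or MLN-primed 1 (adjusted p = 0.0549).

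**Figure D5:**
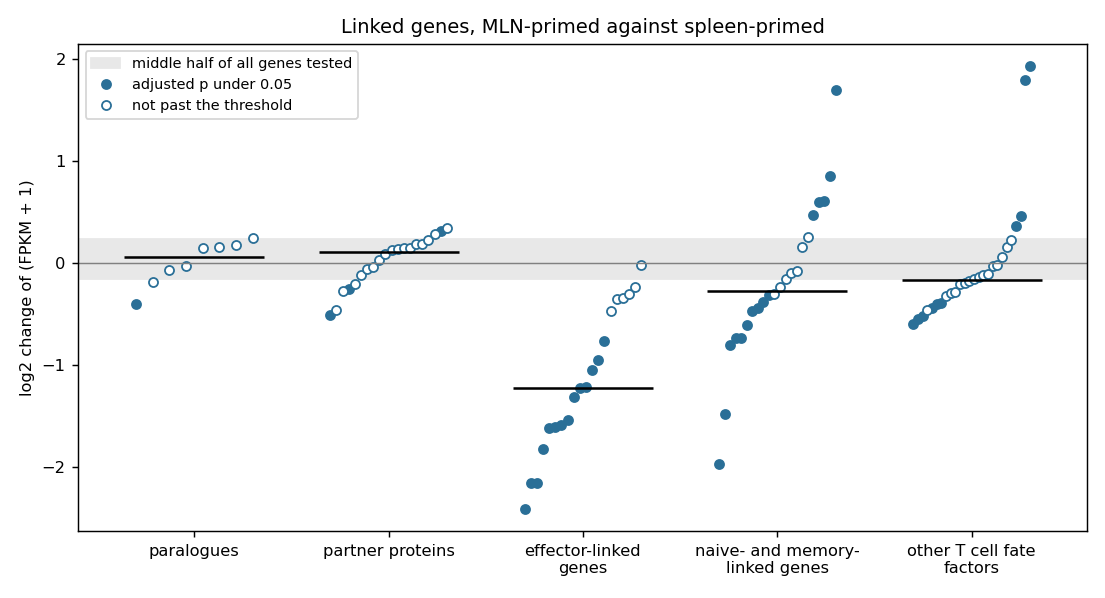
Log2 change between MLN-primed and spleen-primed cells for the tested genes of each list, filled where the adjusted p was under 0.05, with the list median as a line and the interquartile range of all genes tested as a grey band. The genes linked to effector regulators have a median of −1.23, against 0.03 over all genes tested.

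For each member the genes with the most similar profile were found by the root mean square (RMS) difference of log2(FPKM + 1) over the 9 libraries, each gene centred on its own mean, among 7742 genes. Libraries are shared by all genes, so this is a description. Nearest to Tbx21 was Tigit (RMS difference 0.116), nearest to Eomes Fgl2 (0.137) and nearest to Id2 Arsb (0.189). Tcf7 was nearest to Il6ra (0.266), followed by Il7r and Nsg2, the largest nearest distance among the members, and Lef1 to Actn1 (0.145). The nearest gene to Id3 was St8sia1 (0.130), to Prdm1 Bard1 (0.0680) with Brca1 next (0.0710), and to Bcl6 Ranbp6 (0.0667). Zeb2 lay nearest to Chsy1 (0.144) and Bach2 to Pacsin1 (0.169). Low genes such as Prdm1 and Bcl6 span fewer log2 units, which shortens these distances. Among the members themselves the closest profiles were those of Eomes and Zeb2 (0.289) and of Lef1 and Id3 (0.341).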

How the data were processed

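Per the labels' protocols, OT-I RNA came from RNeasy Plus Micro columns and was made into TruSeq Stranded mRNA libraries. The deposited table gives FPKM per gene and library, and per the submitters' processing notes TopHat, Cufflinks and mm10 were used. Not given in the sources used here were their versions and the use of strand. FPKM keep no read numbers and leave scale differences between libraries in place. The members and gene lists were chosen with earlier results of these data known.

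Of 24067 rows, 131 without a symbol (0.0479% of FPKM) were left out. Genes at 1 FPKM or more in at least 3 libraries (10185) entered 1 limma-trend model of log2(FPKM + 1) over 9 libraries, with 3 two-sided contrasts and Benjamini-Hochberg adjustment at 0.05. Software was R 4.3.3 with limma 3.58.1, and Python 3.11.15 with pandas 2.3.3, numpy 2.4.6, matplotlib 3.10.9 and scipy 1.17.1. The model was tested on simulated data. The depth was estimated from the steps between low FPKM of genes with 1 transcript, taking 1 step as 1 fragment, so it is not a read number. Lengths and positions came from GENCODE M21 on GRCm38 and promoters from RefSeq on GRCm38.p6, and all 10 members matched both.

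All members were named, with the 4 smallest p-values in each direction of each other list described, the paralogues that bear on a member, and the nearest genes by profile among those at 5 FPKM or more in a group. Some genes that meet this rule or belong to the marker lists are not reported here. The results were recomputed with median-of-ratios and quantile scaling, a pseudocount of 0.1, a filter of 5 FPKM or none, other variance models, fits of both groups alone, the replicate number as a block, removal of the length trend, and each library left out.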

Additional observations from a re-analysis of the deposited data

Results flagged for a closer look

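The response to priming differed between spleen-primed and MLN-primed cells for 6 members, by the direct contrast of these groups in limma with Benjamini-Hochberg adjustment. For the activator genes Tbx21 (−0.54 log2) and Eomes (−1.04) and for Id2 (−0.999) and Zeb2 (−0.62), the rise from naive was smaller in MLN-primed cells. For Tcf7 (−0.73) the fall was larger, and for Id3 (0.45) it was smaller. The calls for Tcf7 and Id3 depended on single libraries.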

How the results depend on the processing

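Of 594 recomputed member changes, 573 kept direction and side of the threshold, 11 lost a call, 10 gained one and 0 reversed. All 21 that changed concern MLN-primed against spleen-primed. The calls of Tbx21, Eomes, Id2 and Zeb2 held in every setting in which they were tested (Zeb2 and Bcl6 were not tested under the 5 FPKM filter). With each library left out in turn, genes lower in MLN-primed than spleen-primed cells ranged from 884 to 1389, and Lef1 between 0.12 and 0.47. With a pseudocount of 0.1 the log2 ratios were 3.18 for Tbx21 to Eomes in MLN-primed and 5.02 for Id2 to Id3 in spleen-primed libraries. Prdm1 to Bcl6 was −2.80, 3.37 and 4.13, and Prdm1 to Bach2 −4.83, 4.17 and 5.44, in the naive, the spleen-primed and the MLN-primed libraries. Zeb2 to Tcf7 was −12.1 in naive and −3.19 in MLN-primed libraries. These shifts follow from the smaller constant added to low values. With the length trend removed, Prdm1 to Bach2 was 2.57 in spleen-primed and Zeb2 to Tcf7 −9.64 in naive libraries; the cause was not tested. Of 600 list counts 26 moved by over 1.5 times.

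Libraries of one number correlated across genes, as deviations from their group means, at 0.64, −0.24 and 0.49 between the primed groups, 0.16, 0.12 and 0.24 between spleen-primed and naive, and 0.14, −0.24 and 0.12 between MLN-primed and naive. The labels name no shared animal. With the replicate block, 3382 genes in place of 3093 passed between the primed groups, and no member call changed. Depth limits Bach2 and Bcl6 in primed and Zeb2 and Prdm1 in naive libraries, where few fragments stand behind each value.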
